A study of Mus musculus with 20 samples.

Results

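A set of 9 transient receptor potential (TRP) channel genes was followed in cultured mouse dorsal root ganglion (DRG) neurons: Trpv1, Trpv2, Trpa1, Trpm8, Trpm6, Trpm7, Trpm4, Trpc1 and Trpc6. The members were chosen by gene name, as every non-control probe that the array's annotation gives to 1 of these genes, which found 1 probe for each of the 9 genes among 30222 gene names on the array. RNA was measured in 20 samples on 10 Agilent arrays, each of which held 2 samples of the same condition, 1 read in the colour Cy3 and 1 in Cy5. The 5 conditions, each with 4 samples from 2 arrays, were neurons without stimulation and neurons stimulated through electrodes with bursts of 18 action potentials every 1 min (18/1) or 90 every 5 min (90/5), for 2 hr or 5 hr. Both patterns deliver the same number of action potentials over time, so the comparisons ask whether burst timing and duration alter the levels of these channels.

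All neurons came from NIH Swiss embryos of day 13.5, were grown with nerve growth factor, were treated for several days with a drug against dividing cells and were used after some weeks in culture, and controls were handled in the same way without current. The study describes each condition as a pool of cultures and calls the samples that share an array biological replicas. The p-values of limma measure the spread between such samples and between the 2 arrays of a condition, since the array is a random block. The labels speak of neurons dissociated from spinal cords and also of DRG neurons. In every one of the 20 samples, 14 of 14 markers of sensory neurons had spots at 2 times their background or more, against 1 of 4 markers of spinal motor neurons. Among markers of other cells, 5 of 8 for Schwann or satellite cells, 5 of 6 for fibroblasts, 1 of 4 for astrocytes, 3 of 4 for macrophages and 2 of 3 for endothelium met the same rule. With bulk RNA, fewer cells of a type and less RNA per cell cannot be told apart.

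TRP channels are cation channels of the cell membrane that open in response to temperature, chemicals, lipids or intracellular calcium. In sensory neurons, TRPV1 is the receptor for capsaicin and noxious heat, TRPM8 is the receptor for menthol and cold, and TRPA1 is opened by pungent and reactive compounds such as mustard oil. TRPM4 passes sodium and potassium when intracellular calcium rises, TRPM6 and TRPM7 join a channel that passes magnesium and calcium to a kinase domain, and TRPC1 and TRPC6 belong to the channels that act downstream of phospholipase C.

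The slides and arrays that stand apart have to be stated first. Arrays 1 and 2 carried unstimulated neurons and shared slide 1 with arrays 3 and 4, which carried 18/1 2 hr. On slide 2, arrays 5 and 6 carried 18/1 5 hr, and arrays 7 and 8 carried 90/5 2 hr. The 90/5 5 hr condition had slide 3 to itself, as arrays 9 and 10. A slide is thus shared by unstimulated neurons with 18/1 2 hr, and by 18/1 5 hr with 90/5 2 hr. For every other pair, slide and condition cannot be told apart. The median spot was 238 to 491 units bright in the 18/1 5 hr samples and 87.1 to 109 units in the samples of slide 1, and the scanner software marked 5454 to 14917 spots per sample as non-uniform in the 18/1 5 hr samples, against 6 to 38 on slide 1. On slide 2, array 8 also had 3225 and 6634 such spots in its colours. As a check of the stimulation, 6 activity-induced genes (Fos, Fosb, Egr1, Npas4, Nr4a1 and Rgs2) were compared with unstimulated neurons. In the wider of the fits used here, higher levels passed the test for 4 of the 6 after 2 hr and 5 after 5 hr of 18/1, and for 6 after 2 hr and 5 after 5 hr of 90/5. Of all probes of that fit, 0.0167% and 37.0% were called in the 18/1 conditions and 4.33% and 0.121% in the 90/5 conditions, in either direction.

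Each probe is 60 bases long, and its spot is the only measurement of its gene, so that another transcript form or a cross-hybridizing transcript would not be seen. The first 30 bases of each probe are shown here because they say which stretch of each channel's transcript was read, 5′ to 3′ and in lower case throughout.
Trpv1: tcccttaagccagaggatgctgaggtcttc
Trpv2: agggaattttgccagccacacccgaggcta
Trpa1: gcagaaattcactgttccttcctcaaattt
Trpm8: taagtgttgacactcctttcccacgactgt
Trpm6: gccacttggagtagaatgctgtgcactaac
Trpm7: cgcagagataagctgttaaatagtgtttaa
Trpm4: acagtgactcggagcgtttgaaacgcacgt
Trpc1: gggatttgcttggctttcggacttctaaat
Trpc6: agagtcctaatatcaactttttgggtgatt

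By the files' coordinates on mm9, the probes lie at chr11:73073950-73074009 and chr11:62413739-62413798 on the plus strand, chr1:14862782-14862841 on the minus strand, chr1:90285366-90285425 and chr19:18966941-18967000 on the plus strand, chr2:126617373-126617432, chr7:52560215-52560354 and chr9:95607155-95607214 on the minus strand, and chr9:8680682-8680741 on the plus strand. The Trpm4 probe covers 140 bases of the genome with its 60 bases, so that it spans an exon junction, and the other probes lie on unbroken stretches of 60 bases. The files give no exon or UTR for these positions. The files' RefSeq transcript of each probe belongs to the same gene in the RefSeq table of GRCm38.p6 for 9 of the 9 members.

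Signals are given as normalized log2 intensities, corrected for background and scaled between colours and arrays, and were compared only within a probe. A probe entered the main fit if its spot was at least 2 times as bright as its background and was not marked as non-uniform in all 20 samples. This left 12137 probes and 4 of the 9 members, Trpv2, Trpa1, Trpm4 and Trpc1. The other 5 were tested in a second fit of 23905 probes that asked for this in the 4 samples of at least 1 condition. Trpv1, Trpm7 and Trpm8 missed the stricter rule through marks of non-uniform spots on slide 2, in 1, 2 and 2 samples. Trpm6 missed it through 1 unstimulated sample at 1.93 times its background. Trpc6 passed it in 11 of 20 samples and in the 4 samples of 18/1 5 hr alone, so that its entry depended on the condition where its spots were bright. Comparisons used limma, with Benjamini-Hochberg adjustment over all probes of the fit and a threshold of 0.05.

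Against unstimulated neurons, 3 channels fell with 18/1 5 hr: Trpv1, the capsaicin and heat receptor, Trpm8, the menthol and cold receptor, and Trpm4, the calcium-activated channel. These samples lay on slide 2 and the unstimulated ones on slide 1, so that slide and condition cannot be told apart. In the other 3 stimulated conditions, 0 of the 9 passed limma's adjusted threshold. In the main fit the fall was called for 1 of 4 members at 18/1 5 hr, beside 30.6% of all probes called lower and 44.9% called in either direction. In the second fit it was called for 2 of the 4 further members other than Trpc6, which entered through 18/1 5 hr alone and is not counted in comparisons with that condition, beside 24.5% of all probes called lower and 37.0% in either direction. The share of all probes called was 0.0165% at 18/1 2 hr, 6.00% at 90/5 2 hr and 0.0577% at 90/5 5 hr in the main fit, and 0.0167%, 4.33% and 0.121% in the second fit. At an unadjusted p under 0.05, limma found 0 members at 18/1 2 hr and at 90/5 2 hr, and Trpm6 at 90/5 5 hr. Of 12137 probes in the main fit, 102, 2710 and 403 had such a p at 18/1 2 hr, 90/5 2 hr and 90/5 5 hr. In the second fit 130, 4644 and 729 of 23905 probes did. The methods' t-test without adjustment found 0, 0 and 1 members in these conditions, again Trpm6, and after adjustment 0. The shares of all probes passing that test are not given here.

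**Figure D1:**
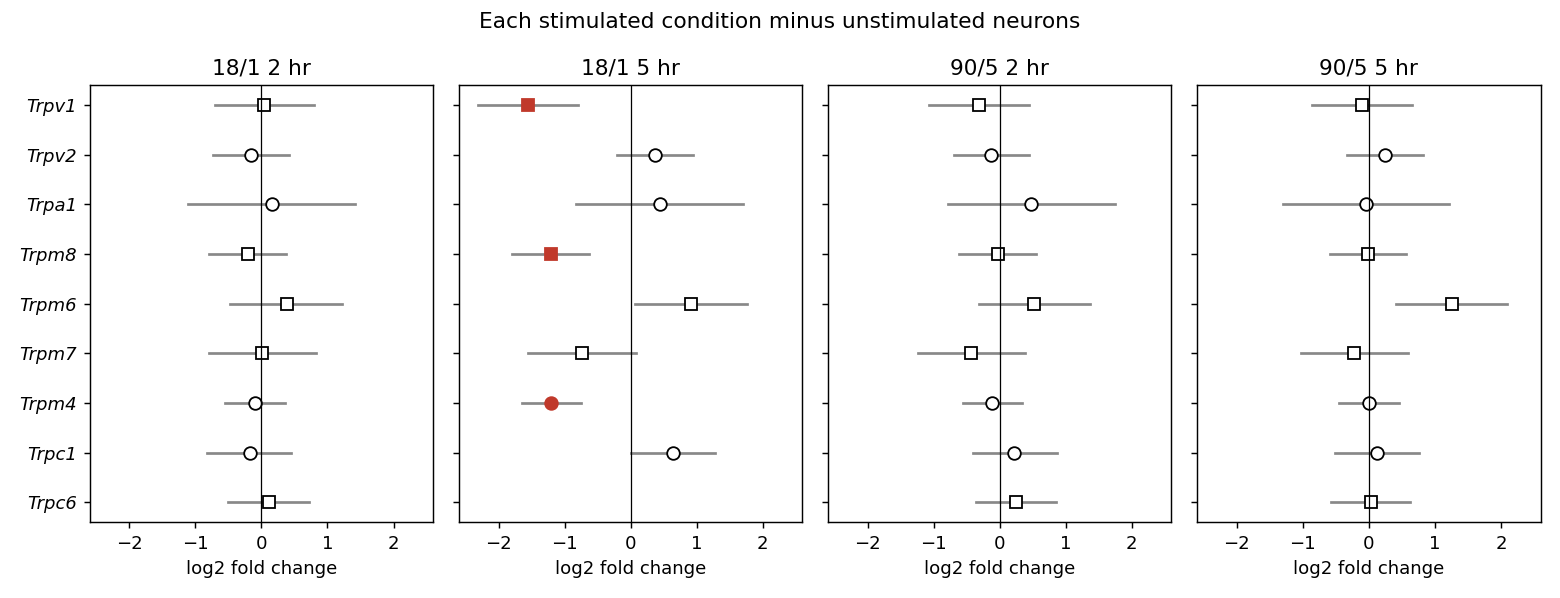
Log2 fold change of each TRP channel in each stimulated condition minus unstimulated neurons, with 95% intervals (4 against 4 samples). Circles are members of the main fit, squares those of the second fit, and filled red marks have an adjusted p under 0.05; the filled marks are Trpv1, Trpm8 and Trpm4 at 18/1 5 hr, and Trpc6 is not drawn at 18/1 5 hr, the condition through which it passed the filter.

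Among the receptors for temperature and irritants, Trpv1 was lowest with 18/1 5 hr. Its normalized log2 signals were 9.11, 8.65, 8.98 and 9.22 in unstimulated replicates 1 to 4 and 9.11, 8.72, 9.05 and 9.25 in those of 18/1 2 hr. The 18/1 5 hr signals were 6.71 (Cy3) and 6.69 (Cy5) on array 5, and 8.10 and 8.24 on array 6. The groups do not overlap, but array 5 lay far below array 6. The 90/5 2 hr samples had 8.92 and 8.90 on array 7 and 8.35 and 8.54 on array 8, and the 90/5 5 hr replicates 9.14, 9.22, 8.57 and 8.61. In order of their means, the conditions were 18/1 2 hr (9.03 ± 0.22, SD, n = 4), unstimulated (8.99 ± 0.25), 90/5 5 hr (8.88 ± 0.34), 90/5 2 hr (8.68 ± 0.28) and 18/1 5 hr (7.43 ± 0.85), and neighbours among the first 4 differ by less than their SDs. The log2 difference of 18/1 5 hr from unstimulated neurons was -1.56 (SE 0.36, limma adjusted p = 0.00292), and without array 5 it was -0.82 (adjusted p = 0.0372). Of the 4 Trpv1 spots of this condition, the 2 on array 5 were not well above background by the scanner's mark, so that the size of the difference over both arrays depends on spots near background, and without array 6 it would rest on these alone. The Cy5 spot on array 6 was marked as non-uniform.

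Trpm8 was also lowest with 18/1 5 hr, and its arrays differed less. It measured 8.21, 7.93, 7.93 and 8.19 in unstimulated replicates 1 to 4, and 8.11, 7.58, 7.93 and 7.80 in those of 18/1 2 hr. With 18/1 5 hr the values were 7.09 and 6.78 on array 5 and 6.81 and 6.74 on array 6. These 4 samples lie below the other 16. The 90/5 2 hr samples had 7.95 and 7.61 on array 7 and 8.14 and 8.44 on array 8, both spots of array 8 being marked as non-uniform, and the 90/5 5 hr replicates had 7.93, 7.93, 8.41 and 7.94. The log2 difference of 18/1 5 hr from unstimulated neurons was -1.21 (SE 0.28, limma adjusted p = 0.00277). In the other stimulated conditions the difference from unstimulated neurons was -0.21 with 18/1 2 hr, and with 90/5 it was -0.03 after 2 hr and -0.01 after 5 hr. Of the 4 spots at 18/1 5 hr, 2 were well above background.

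Trpa1, the receptor for irritants, had the largest SD of the 9 members in each condition except 90/5 5 hr. Unstimulated samples ranged from 7.62 to 8.98, 18/1 2 hr samples from 7.82 to 8.85, 18/1 5 hr samples from 7.32 to 9.61, 90/5 2 hr samples from 7.46 to 9.35, and 90/5 5 hr samples from 7.64 to 8.64. All of these ranges overlap. With 18/1 5 hr the samples were 8.09 and 7.32 on array 5 and 9.32 and 9.61 on array 6, so that the arrays differ by more than the conditions do. The 95% interval of the log2 difference from unstimulated neurons ran from -0.83 to 1.70 at 18/1 5 hr and from -1.30 to 1.22 at 90/5 5 hr. The difference at 18/1 5 hr was 0.44, and it was 0.05 with median centring and, in the second fit with array weights, 1.29 (limma adjusted p = 0.0403).

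Trpv2, a relative of Trpv1, was bright on the array, with spots at 68.4 to 616 times their background. Its 18/1 5 hr samples had 13.29, 13.43, 13.08 and 13.21, above the unstimulated range of 12.79 to 13.00. The log2 difference of 0.37 (SE 0.28, adjusted p = 0.288) did not pass, but it did with the scanner's processed signals (0.84, adjusted p = 0.0229). At 90/5 5 hr, replicate 3 had 13.82 and the other replicates 12.79 to 12.96. The 95% interval at 90/5 5 hr ran from -0.33 to 0.82.

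Of the members that do not overlap unstimulated neurons at 18/1 5 hr, Trpv2 and Trpc1 lay higher and Trpv1, Trpm8, Trpm4 and Trpm7 lower. Of all probes of the second fit, 18.4% lay higher and 34.7% lower without overlap in that comparison.

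**Figure D2:**
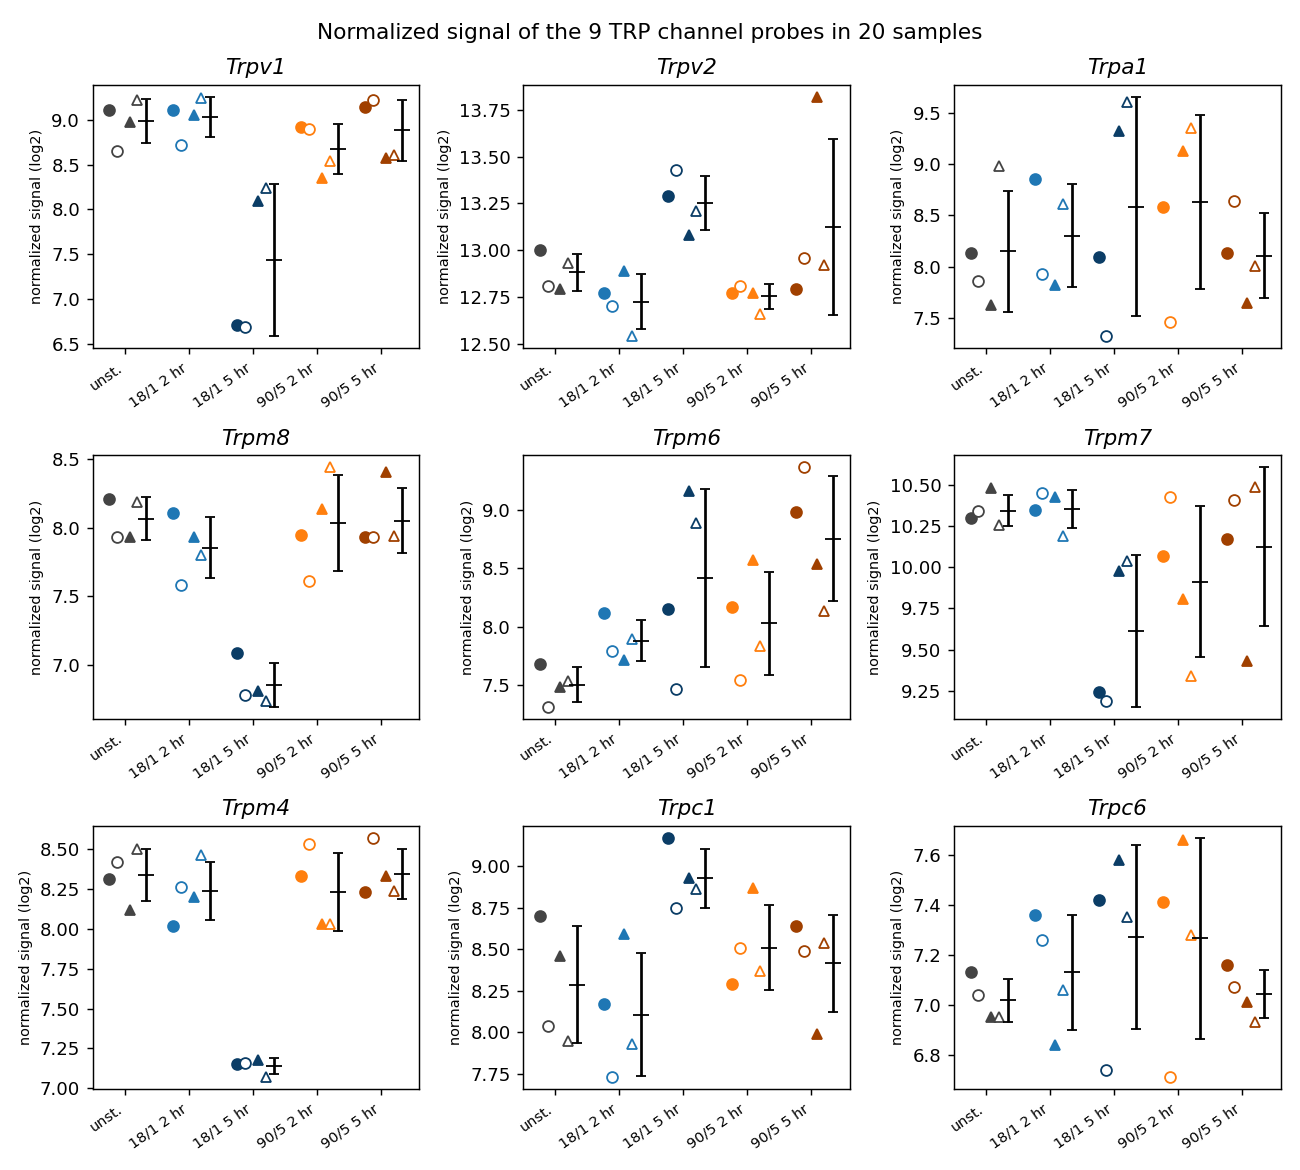
Normalized log2 signal of each TRP channel probe in the 20 samples by condition; circles and triangles are the first and second array of a condition, filled marks Cy3 and open marks Cy5, and black bars the mean ± SD of 4 samples. The 18/1 5 hr samples of Trpm4 (7.07 to 7.18) and Trpm8 (6.74 to 7.09) lie below all others, and those of Trpv1 split by array.

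Trpm4, which carries monovalent cations when calcium rises, gave the tightest values with 18/1 5 hr. Unstimulated replicates 1 to 4 had log2 signals of 8.31, 8.42, 8.12 and 8.50, and those of 18/1 2 hr had 8.02, 8.26, 8.20 and 8.46. The 18/1 5 hr samples had 7.15, 7.16, 7.18 and 7.07, alike on both arrays. The 90/5 2 hr samples had 8.33, 8.53, 8.03 and 8.03, and the 90/5 5 hr replicates had 8.23, 8.57, 8.33 and 8.24. The 18/1 5 hr samples are thus below the other 16, among which no condition differs beyond its spread. The log2 difference from unstimulated neurons was -1.20 (SE 0.22, limma adjusted p = 0.000226), or 2.29-fold. The 95% intervals of the other stimulated conditions ran from -0.55 to 0.35 at 18/1 2 hr, -0.56 to 0.34 at 90/5 2 hr and -0.45 to 0.45 at 90/5 5 hr.

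The falls of Trpm4, Trpv1 and Trpm8 are relative to the other spots of the same samples. Before normalization, the Trpm4 spot measured 171 to 216 units in unstimulated samples and 182 to 314 units at 18/1 5 hr. The Trpm8 spot measured 135 to 159 and 124 to 206 units, and the Trpv1 spot 259 to 368 and 112 to 722 units. The median spot of the 18/1 5 hr samples was meanwhile at 238 to 491 units, against 90.2 to 109 in unstimulated samples. Under the other scalings run, Trpm4 had a difference of -1.42 to -0.89, Trpv1 of -2.10 to -1.57 and Trpm8 of -1.49 to -1.15. The median of all probes of the main fit at 18/1 5 hr was -0.26, and it was -0.84 when samples were centred on their medians alone. Relative to that median, Trpm4 was lower by a log2 value of -0.94 in the main processing and -0.32 with median centring. The part of slide 2 in these differences was not tested.

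Markers of other cells were set beside these differences, as the log2 of the summed linear signals of each list, a sum in which the brightest probe weighs most, and as counts of genes called in the second fit, where 37.0% of all probes were called at 18/1 5 hr. For the 6 fibroblast markers the log2 of the sum was 16.03 to 16.23 at 18/1 5 hr and 14.08 to 15.45 in unstimulated samples, and 1 gene was higher. That of the 3 endothelial markers was 9.19 to 9.73 and 11.15 to 11.71, and 2 genes were lower. The sums of these lists do not overlap between the conditions, nor do those of the motor neuron and astrocyte markers. The 4 motor neuron markers had 12.83 to 13.24, against 11.82 to 12.15, and of the 3 tested 2 were higher and 1 lower. The 4 astrocyte markers had 9.94 to 11.6, against 9.29 to 9.71, but none of the 3 tested was called and their median difference was -0.34, beside -0.23 for all probes. The sums of the remaining lists overlap between the conditions. The 8 markers of Schwann or satellite cells had 15.16 to 16.4, against 16.15 to 16.3, and of the 6 tested 2 were lower. The 4 of macrophages had 11.26 to 11.87, against 11.21 to 11.52, and 1 was higher. The 14 sensory neuron markers had 19.02 to 19.61, around the unstimulated range of 19.34 to 19.45, and 2 were lower. Their part in the falls of the channels was not tested.

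**Figure D3:**
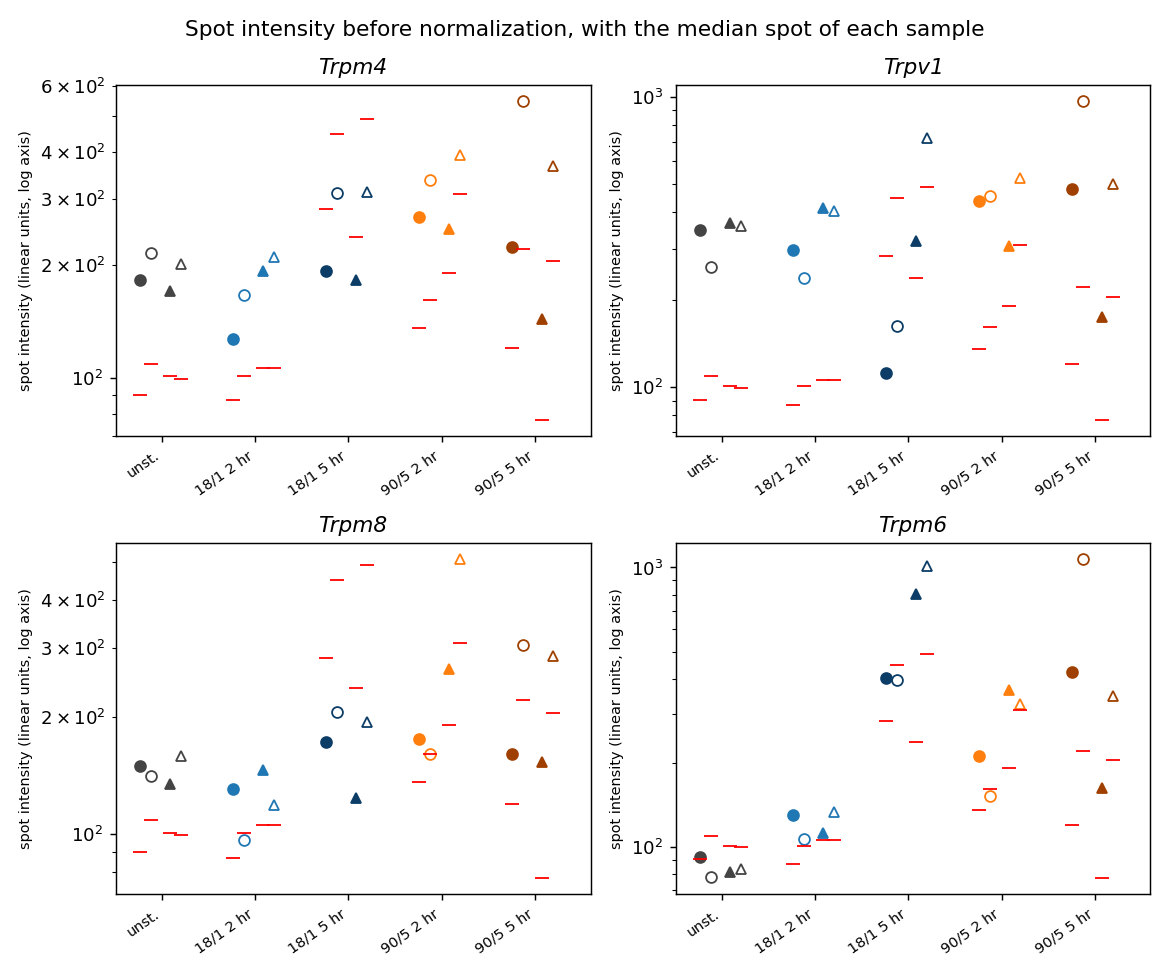
Spot intensity before normalization (linear units on a log axis) of Trpm4, Trpv1, Trpm8 and Trpm6 by condition, with marks as in the plot of normalized signals, and the median spot of each sample as a red line. The Trpm4 and Trpm8 spots of 18/1 5 hr lie below the medians of their samples, which are at 238 to 491 units.

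Trpm6, the magnesium channel with a kinase domain, had the highest mean of its 5 conditions with 90/5 5 hr. Unstimulated replicates 1 to 4 had log2 signals of 7.68, 7.31, 7.48 and 7.53, and the 18/1 2 hr replicates 8.12, 7.79, 7.71 and 7.89. The 18/1 5 hr samples had 8.15 and 7.46 on array 5, and 9.17 and 8.89 on array 6. For 90/5 the values were 8.17, 7.54, 8.57 and 7.83 at 2 hr, and 8.99, 9.37, 8.54 and 8.13 in replicates 1 to 4 at 5 hr. The 18/1 2 hr and 90/5 5 hr samples lie above the 4 unstimulated ones without overlap, and each of the other conditions has 1 sample within the unstimulated range. This made 1 of 9 members higher without overlap in each of these comparisons, beside 2.73% of the probes of the second fit at 18/1 2 hr and 6.47% at 90/5 5 hr. The spot itself measured 78 to 92 units in unstimulated samples, up to 133 at 18/1 2 hr and 162 to 1071 at 90/5 5 hr.

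The log2 difference of Trpm6 from unstimulated neurons was 0.38 (SE 0.40) after 2 hr and 0.92 after 5 hr of 18/1, with limma adjusted p = 1 and 0.081. The value after 5 hr of 18/1 was 0.30 without array 6 (adjusted p = 0.503) and 1.53 without array 5 (adjusted p = 0.00414), and it was called in 6 of the 45 other settings run, with 0.92 to 2.25. The difference from unstimulated neurons was 0.52 after 2 hr and 1.26 after 5 hr of 90/5, with limma adjusted p = 0.514 and 0.909. At 90/5 5 hr the unadjusted p was 0.00566 and the 95% interval 0.41 to 2.10. The log2 of the summed endothelial markers was 11.84 to 12.54 in these samples and 11.15 to 11.71 in unstimulated ones, with 0 of the 3 markers called in limma, and its part in the Trpm6 difference was not tested. With slide 2 left out of the fit, the same difference of 1.26 had an SE of 0.23 and a limma adjusted p of 0.0144, and 3.23% of all probes were called. Unstimulated and 90/5 5 hr samples lay on different slides in that fit too, so that slide and condition cannot be told apart. With a replicate block for the same-numbered samples of 18/1 2 hr and unstimulated neurons, the Trpm6 difference of 0.38 had a limma adjusted p of 0.603. Within slide 1, where 18/1 2 hr and unstimulated samples share the glass, the difference of 0.38 had an adjusted p of 0.75 without slide 2.

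Trpm7, the relative of Trpm6 that most cells express, did not follow it. Its unstimulated samples ranged from 10.26 to 10.48 and its 18/1 2 hr samples from 10.19 to 10.45. With 18/1 5 hr it had 9.24 and 9.19 on array 5, both marked as non-uniform, and 9.98 and 10.04 on array 6. The log2 difference at 18/1 5 hr was -0.73 (SE 0.39, adjusted p = 0.146). It was called in 4 other settings, with median centring (-1.42, adjusted p = 0.0262), without array 6 (-1.13, adjusted p = 0.0179), with no array block and in the methods' t-test before adjustment. The 90/5 values ranged from 9.34 to 10.43 at 2 hr and from 9.43 to 10.49 at 5 hr. Trpm7 and Trpm6 thus had differences of opposite sign at 18/1 5 hr, at 90/5 2 hr (-0.43 and 0.52) and at 90/5 5 hr (-0.22 and 1.26), although neither gene passed in these comparisons and the contrast between them was not tested.

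The canonical channels Trpc1 and Trpc6 lie downstream of phospholipase C. Trpc1 had 8.70, 8.04, 8.46 and 7.95 in unstimulated replicates 1 to 4 and 8.17, 7.73, 8.59 and 7.93 in those of 18/1 2 hr. With 18/1 5 hr it had 9.17, 8.75, 8.93 and 8.86, above these 8 samples. Its log2 difference of 18/1 5 hr from unstimulated neurons was 0.64 (SE 0.31, adjusted p = 0.0916). This difference had an unadjusted p under 0.05, and it was called in 5 other settings of the main fit (0.64 to 1.06), among them the scanner's processed signals, array weights and the methods' t-test before adjustment, and was 0.18 with median centring. In each of these slide 1 conditions the Cy3 samples were brighter than the Cy5 samples. The fit has 1 colour term for all 20 samples. On arrays 7 and 10 Cy5 was brighter (8.51 against 8.29 and 8.54 against 7.99), so that this term need not remove the slide 1 difference. Trpc6 was dim, at 1.26 to 8.08 times its background, and its group means lay between 7.02 and 7.27. Its spots, at 53 to 69 units in unstimulated samples, were all under 2 times their background, and those of 18/1 5 hr were at 217 to 396 units. Since Trpc6 entered the fit through 18/1 5 hr alone, its difference in that condition is not read as a test and is not plotted.

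The patterns were compared at each time to ask whether burst timing mattered with the number of action potentials held alike. At 2 hr, 0 of 9 members passed in limma, beside 4.62% of all probes in the main fit and 3.28% in the second. At an unadjusted p under 0.05 in limma there were 0 members, beside 2333 of 12137 and 4182 of 23905 probes. The methods' t-test passed 0 members, its share of all probes not being given here. At 5 hr, 90/5 exceeded 18/1 in Trpm4 by 1.20 (SE 0.22, limma adjusted p = 0.000193), in Trpv1 by 1.45 (SE 0.36, adjusted p = 0.00436) and in Trpm8 by 1.20 (SE 0.28, adjusted p = 0.0027). These are 1 of 4 and 2 of 4 members, beside 30.7% and 25.1% of all probes called higher and 45.9% and 38.2% called in either direction. Trpc1 went the other way, with a log2 difference of -0.52 (SE 0.31, limma adjusted p = 0.174). The methods' t-test before adjustment passed 4 members, Trpm4, Trpv1, Trpm8 and Trpc1, beside 47.5% and 43.4% of all probes in the main and second fits. The log2 of the summed signals of the fibroblast markers was 14.37 to 15.45 with 90/5 5 hr, against the 16.03 to 16.23 with 18/1 5 hr, with 3 of 4 tested lower in the main fit (median -1.19 beside 0.27 for all probes) and 1 of 6 lower in the second (median -0.95 beside 0.22). That of the endothelial markers was 11.84 to 12.54, against 9.19 to 9.73. The motor neuron markers had 12.04 to 12.33, against 12.83 to 13.24, with 1 higher and 2 lower of the 3 tested in the second fit, and the astrocyte markers 9.12 to 9.34, against 9.94 to 11.6, with 0 of 3 called in limma. The part of these markers in the differences of the channels was not tested. The comparison at 2 hr set slide 2 against slide 1 and that at 5 hr slide 3 against slide 2. Slide and pattern thus cannot be told apart. The 5 hr comparisons share their 18/1 5 hr samples with those against unstimulated neurons and are not independent of them. Without array 5 the Trpv1 difference was 0.71 (adjusted p = 0.063), and without array 9 it was 1.15 (adjusted p = 0.0778). Its call was also lost in the methods' t-test after adjustment.

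Between the times, 90/5 gave 0 of 9 members in limma, beside 8.06% and 7.14% of all probes in the main and second fits. At an unadjusted p under 0.05 in limma it gave 0 members, beside 2737 of 12137 and 4986 of 23905 probes. The methods' t-test gave 0 members, its share of all probes not being given here. With 18/1, the 2 hr samples lay on slide 1 and the 5 hr samples on slide 2, so that slide and time cannot be told apart. Trpm4 fell from 2 hr to 5 hr of 18/1 by 2.14-fold (SE of the log2 difference 0.22, limma adjusted p = 0.000521). Trpv1 fell by 1.60 on the log2 scale (SE 0.36, adjusted p = 0.00252) and Trpm8 fell by 1.00 (SE 0.28, adjusted p = 0.00954). Trpc1 rose over the same time by 0.83 (SE 0.31, adjusted p = 0.0329), or 1.77-fold. In the main fit 1 of 4 members thus fell and 1 rose, beside 30.1% of all probes called lower and 14.7% called higher, and in the second fit 2 of 4 members fell, beside 23.9% called lower. In either direction, 44.8% and 36.5% of all probes were called. Trpv2 had a difference of 0.53 (limma adjusted p = 0.128) and was called in 6 other settings of the main fit (0.53 to 0.80). Without array 5, Trpv1 fell by 0.86 (limma adjusted p = 0.0307). Its call was lost in the methods' t-test after adjustment. The Trpc1 call was lost in limma without 18/1 2 hr replicate 2 (0.76, adjusted p = 0.069) or replicate 4 (0.75, adjusted p = 0.0801), without the Cy3 sample of array 5 (0.79, adjusted p = 0.0551), and without any 1 of arrays 1 to 5. It was also lost with median centring (0.38, adjusted p = 0.39), with the second fit's filter (0.83, adjusted p = 0.0668) and with no filter (0.83, adjusted p = 0.137). Of the endothelial markers, 2 of 3 were lower at 5 hr of 18/1 in the second fit, and the log2 of their sum was 10.97 to 11.52 at 2 hr and 9.19 to 9.73 at 5 hr. The fibroblast markers had 14.79 to 15.76 at 2 hr and 16.03 to 16.23 at 5 hr. In limma 0 of 6 were called in the second fit. In the main fit 1 of 4 was higher (median 0.86 beside -0.26 for all probes). Of the 3 motor neuron markers tested in the second fit 2 were higher and 1 lower. The astrocyte markers had 9.15 to 9.57 at 2 hr and 9.94 to 11.6 at 5 hr, with 0 of 3 called in limma. In the second fit 1 of 6 Schwann or satellite markers was lower, 1 of 4 macrophage markers higher and 1 of 14 sensory neuron markers lower. The part of these lists in the falls was not tested. The Trpm8 call was lost without array 3 (-1.01, adjusted p = 0.0653), without array 4 (-0.99, adjusted p = 0.0915) and with the scanner's processed signals. With the processed signals the Trpm4 call was lost too (-0.65, limma adjusted p = 0.0728).

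Whether the time course depended on the pattern was tested as the change from 2 to 5 hr with 90/5 minus the same change with 18/1. The 90/5 change ran from slide 2 to slide 3 and the 18/1 change from slide 1 to slide 2. Slide and this interaction thus cannot be told apart. This interaction was 1.20 for Trpm4 (SE 0.31, limma adjusted p = 0.00333), 1.80 for Trpv1 (SE 0.51, adjusted p = 0.00963) and 1.02 for Trpm8 (SE 0.39, adjusted p = 0.0482). They are again 1 of 4 and 2 of 4 members, beside 29.1% and 24.5% of all probes called higher and 45.0% and 37.9% called in either direction. With each of the 10 arrays left out in turn, the Trpm4 interaction remained called (1.01 to 1.4). The Trpv1 interaction was 1.07 without array 5 (limma adjusted p = 0.0299), and its call was lost without array 4 (1.69, adjusted p = 0.0545) and without array 9 (1.51, adjusted p = 0.0652). The Trpm8 call was lost in 7 of the 10 fits, which left out arrays 1, 2, 3, 4, 7, 9 and 10 (0.77 to 1.14, limma adjusted p = 0.0677 to 0.177). For Trpm6 the interaction was 0.19 (SE 0.57, adjusted p = 0.815). Of the markers of other cells in the second fit, 2 of 3 endothelial ones had a higher interaction (median 2.10 beside 0.31 for all probes). Of the 3 motor neuron markers tested 1 was higher and 2 lower. Of 6 fibroblast markers 1 was lower, and of 6 Schwann or satellite markers 1 was higher. The sensory neuron, astrocyte and macrophage lists had 0 called in limma. The part of these markers in the interactions was not tested.

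The comparison of 90/5 2 hr with 18/1 5 hr lies within slide 2, so that it does not rest on a difference between slides. Trpm4 was higher with 90/5 2 hr by 1.09 (SE 0.22, limma adjusted p = 0.00558), Trpv1 by 1.24 (SE 0.36, adjusted p = 0.0397) and Trpm8 by 1.18 (SE 0.28, adjusted p = 0.0171). This is 1 of 4 and 2 of 4 members, beside 11.0% and 6.10% of all probes called higher and 13.8% and 8.88% called in either direction. Of the markers of other cells tested in the second fit, limma called 0 in this comparison, and the sums of the fibroblast and endothelial lists overlap. The endothelial overlap is narrow, with 9.71 to 10.92 at 90/5 2 hr and 9.19 to 9.73 at 18/1 5 hr. The median difference was 0.56 for endothelial and -0.59 for fibroblast markers, beside 0.14 for all probes. The part of these markers in the differences of the channels was not tested. Pattern and time both differ in this pair, and the arrays of the 2 conditions differ in median spot brightness, 238 to 491 against 136 to 310 units. When only these 8 samples were fitted, the 3 differences were the same in size and had adjusted p = 0.311, 0.547 and 0.547. Without array 7, Trpm4 had 0.89 (adjusted p = 0.0665) and Trpv1 1.01 (adjusted p = 0.224), and without array 5 Trpv1 had 0.51 (adjusted p = 0.285). The Trpm4 call was lost in 5 of the 46 settings run. These were the fit of these 8 samples, the fit without array 7, the scanner's processed signals, the means of arrays and the methods' t-test after adjustment. The Trpv1 call was lost in 21 of the 45 settings run, among them each fit that left out 1 of the arrays other than 6 and 8. The Trpm8 call was lost in 5 of the 45 settings run, which were the fit of these 8 samples, the means of arrays (1.18, limma adjusted p = 0.0731), the scanner's processed signals (1.54, adjusted p = 0.0625), the methods' t-test after adjustment and the fit without array 4 (1.18, adjusted p = 0.0502). For 90/5 5 hr against 18/1 2 hr, 0 of 9 members passed in limma, beside 0.0165% and 0.0837% of all probes. In limma Trpm6 had a difference of 0.88 (SE 0.40, unadjusted p = 0.0419, adjusted p = 1), and no other member had an unadjusted p under 0.05. Of all probes, 307 of 12137 in the main fit and 652 of 23905 in the second had such an unadjusted p. Trpm6 was also the 1 member that passed the methods' t-test before adjustment.

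**Figure D4:**
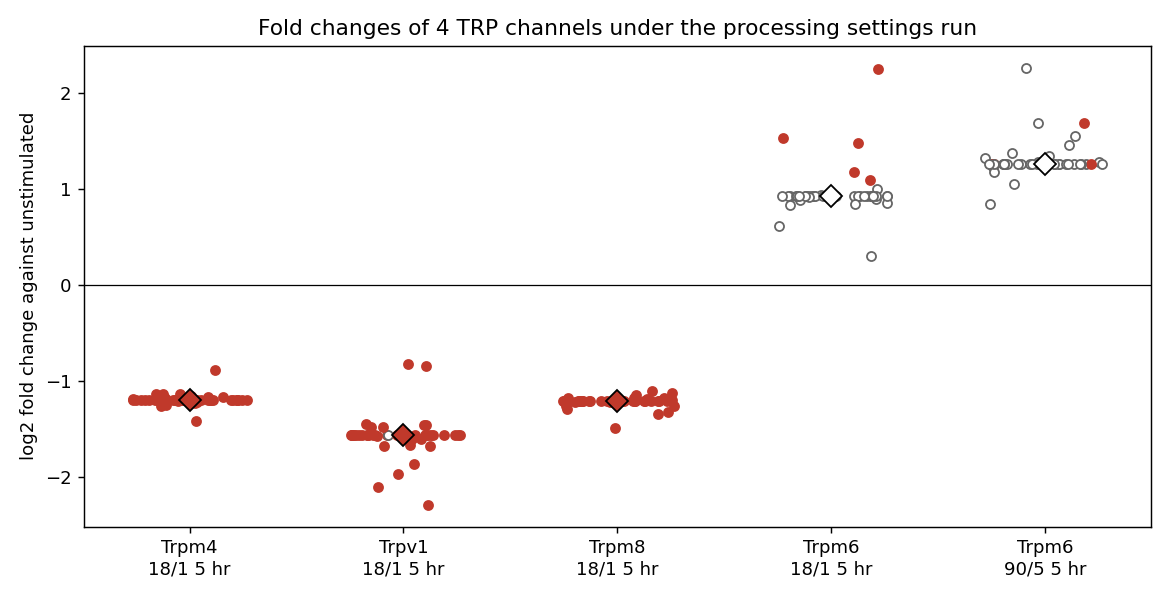
Log2 fold change against unstimulated neurons of Trpm4, Trpv1 and Trpm8 at 18/1 5 hr and of Trpm6 at 18/1 5 hr and 90/5 5 hr in the main processing (diamonds) and under the other settings run (circles); filled red marks have a p under 0.05 by the setting's rule. Trpm4, Trpv1 and Trpm8 are below 0 and Trpm6 above 0 in the settings shown.

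The promoters of Trpv1 and Trpm8, which fell together at 18/1 5 hr, and of Trpm6 are shown for the 250 bases before each gene's start, from RefSeq on GRCm38.p6 and all on the plus strand, at chr11:73233899-73234148, chr1:88306485-88306734 and chr19:18749480-18749729. Capitals mark the letters TATAAA, the core of the TATA box, which stand from base -30 of the start in Trpm8 and are not in the other stretches. Of 32851 promoters of 300 bases, 13.6% hold these letters on either strand, and 1 of the 3 Trpv2 promoters does too.
Trpv1: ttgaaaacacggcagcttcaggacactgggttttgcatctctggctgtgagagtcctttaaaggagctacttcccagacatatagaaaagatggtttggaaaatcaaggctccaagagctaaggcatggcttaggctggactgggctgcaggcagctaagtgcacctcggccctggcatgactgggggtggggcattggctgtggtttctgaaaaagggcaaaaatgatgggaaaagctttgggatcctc
Trpm8: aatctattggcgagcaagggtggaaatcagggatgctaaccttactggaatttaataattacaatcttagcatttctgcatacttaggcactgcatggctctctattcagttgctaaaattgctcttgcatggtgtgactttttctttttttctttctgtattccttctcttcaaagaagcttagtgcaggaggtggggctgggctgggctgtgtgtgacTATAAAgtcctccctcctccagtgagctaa
Trpm6: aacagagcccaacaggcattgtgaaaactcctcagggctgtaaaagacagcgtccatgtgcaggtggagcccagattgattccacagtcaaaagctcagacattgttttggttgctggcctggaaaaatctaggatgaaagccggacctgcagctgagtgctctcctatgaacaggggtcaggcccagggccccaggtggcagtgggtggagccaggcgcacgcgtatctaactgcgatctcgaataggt

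Promoter sequences of 300 bases, reaching 50 bases past the start, were given for 7 of the 9 members, with 9 starts in all, and none for Trpa1 and Trpm4. They were searched on both strands for the letters of sites of activity-induced factors. The cAMP response element TGACGTCA, the AP-1 letters TGANTCA, the letters AAAGGTCA that the NR4A family binds and the letters GCGNGGGCG that the EGR family binds were in none of the 9. Of 32851 promoters of the same length, 1.79%, 7.81%, 1.51% and 5.55% hold them. The core TGACG, which is part of the full element, was in the promoters of Trpm7, Trpc6 and Trpc1 and in 20.8% of all. These matches describe letters in these windows alone.

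Other TRP channels were taken from a list of 20 genes, of which 5 passed the filter in all samples. At 18/1 5 hr against unstimulated neurons, 1 was higher and 2 were lower, where 44.9% of all probes were called, with a median of -0.79 beside -0.26 for all probes of the fit. In the second fit 12 of the 20 were tested, 2 were higher and 2 lower, where 37.0% of all probes were called, and the median was 0.28 beside -0.23 for all probes, so that the median differs in sign between the fits. Mcoln1, a lysosomal calcium channel, fell by 2.80 (SE 0.43, limma adjusted p = 5.75e-05), and Trpc4, a canonical channel like Trpc1, fell by 0.99 (SE 0.24, adjusted p = 0.00259). Trpm1, known from the retina and from melanocytes, rose by 2.07 at 18/1 5 hr (SE 0.52, adjusted p = 0.00306) and by 1.98 at 90/5 2 hr (adjusted p = 0.0256), a call that was lost in the second fit (adjusted p = 0.0756). Both of these conditions lie on slide 2, and on the other slides Trpm1 differed from unstimulated neurons by -0.19 at 18/1 2 hr and -0.53 at 90/5 5 hr. Pkd2, the polycystin channel, had a difference of -0.79 (limma adjusted p = 0.114) at 18/1 5 hr. At 18/1 2 hr and 90/5 5 hr, 0 of these 5 passed in limma.

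Regulators and partners of TRP channels were a list of 27 genes, 17 of them in the main fit. Of these, 2 rose and 4 fell at 18/1 5 hr against unstimulated neurons, where 44.9% of all probes were called, and the list's median was -0.14 beside -0.26 for all probes. In the second fit 24 were tested, of which 1 was higher and 5 lower, where 37.0% of all probes were called, with a median of -0.17 beside -0.23. Those named are the 3 with the smallest adjusted p. Orai1, the pore of the store-operated calcium channel, fell by 1.81 (SE 0.22, limma adjusted p = 6.27e-06). Prkaca, a catalytic subunit of protein kinase A, fell by 1.59 (adjusted p = 0.000491), and Plcg1, a phospholipase C, fell by 1.61 (adjusted p = 0.000504). Between 90/5 and 18/1 at 5 hr, 5 of the 17 were higher and 3 lower with 90/5, where 45.9% of all probes were called. Stim1, the calcium sensor that opens ORAI1, was among the lower ones, by a log2 value of -1.48 (SE 0.43, limma adjusted p = 0.00838).

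Magnesium transport was described with a list of 15 genes beside Trpm6 and Trpm7, 11 of them in the main fit. Of these, 4 rose and 2 fell at 18/1 5 hr against unstimulated neurons, where 44.9% of all probes were called, with a median of -0.27 beside -0.26 for all probes. In the second fit all 15 were tested, and 3 were higher and 4 lower, where 37.0% of all probes were called, with a median of -0.27 beside -0.23. Slc41a3, a magnesium transporter of mitochondria, fell by 2.32 (SE 0.34, limma adjusted p = 3.13e-05) and Cnnm1 fell by 2.51 (SE 0.39, adjusted p = 5.66e-05). Ptp4a2, a phosphatase that binds CNNM proteins, rose by 1.82 (SE 0.30, adjusted p = 9.64e-05), and Nipa2, a magnesium transporter, rose by 1.35 (SE 0.25, adjusted p = 0.000257). At 90/5 5 hr, where Trpm6 had its highest mean, 0 of the 11 passed in limma and the median was -0.01.

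For each member of the main fit, the genes with the most similar levels were listed by Pearson's r over the 20 samples, among 10355 genes, and r was given again over the 12 samples outside slide 2. These are descriptions over samples that share slides and arrays. Trpm4 was closest to Mapkapk2 (r = 0.982, and 0.904 outside slide 2), Tlx3 (0.975 and 0.694) and Dhx38 (0.971 and 0.753). Trpc1 was closest to Lemd3 (0.893 and 0.896), Mtus1 (0.861 and 0.724) and Asph (0.856 and 0.757). Trpa1 was closest to Sqrdl (0.924 and 0.859), Tmem140 (0.907 and 0.755) and Nexn (0.906 and 0.754). Trpv2 was closest to Acin1 (0.846 and 0.910), Slc2a6 (0.776 outside slide 2) and Tyro3 (0.825 and 0.896).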

How the data were processed

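Total RNA of 20 samples was measured on 10 two-colour arrays. The authors deposited, for each spot and colour, the mean intensity, the median background intensity, a processed intensity and marks for other properties (saturated, non-uniform, well above background), extracted with Agilent Feature Extraction 10.7.1.1 (slide 1) or 10.7.3.1 (slides 2 and 3) per the file headers. The values in the files used here are not normalized across arrays, and the authors' normalized values were not used here. Colours were treated as separate samples. For 18/1 5 hr and 90/5 2 hr the labels do not settle which colour held which replicate, so these samples are named by array and colour, and their marks and processed intensities follow the condition of the same colour's spot intensities. Here background was corrected with normexp (offset 50), colours were aligned by loess with control spots at weight 0, and arrays were scaled with Aquantile. In R 4.3.3, limma 3.58.1 fitted the 20 samples with a mean per condition, a colour term and the array as random block (correlation 0.536 in the main fit and 0.642 in the second), with Benjamini-Hochberg adjustment per comparison. Deviations of same-numbered unstimulated and 18/1 2 hr samples correlated (r = 0.404 to 0.704, each best with its own number), so that the numbers were read as pairing these samples, although samples of the same number also share a colour. The numbers of 90/5 5 hr were not read as pairing, since such samples correlated in some cases only. The number of arrays limits the precision. A calling threshold of 0.05 was used; the methods' t-test also asks for a 1.4-fold change. The members, gene lists and alternatives were chosen with earlier results of these data known. All 9 members are named. Of a list, the called genes with the 4 smallest adjusted p per comparison may be named, each by its brightest probe, and every other TRP channel in the main fit, except that 2 genes of these lists are not reported here. The alternatives, whose effect is given at the end, changed the background correction, scaling, spot filter, probe choice, colour and array terms, samples fitted and test. Figures were drawn with matplotlib 3.10.9.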

Additional observations from a re-analysis of the deposited data

Results flagged for a closer look

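In Trpv2 at 90/5 5 hr, replicate 3 stood apart, with a gap to the nearest other sample that was 0.837 of the range of the 4 samples. In Trpm8 at 90/5 5 hr, replicate 3 also stood apart, with a gap of 0.987 of the range, since the other replicates lay within 7.93 to 7.94. The limit for 4 samples is Dixon's 95% value. Chance flags about 1 in 20 groups, and 2 of the 45 groups of the 9 members were flagged.

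The change from 2 to 5 hr differed between the patterns by the interaction test in limma for Trpv1, Trpm8 and Trpm4. For Trpv1 it was 1.80 more with 90/5 than with 18/1 (adjusted p = 0.00963). Without array 5, whose spots at 18/1 5 hr are not well above background, it was 1.07. The Trpv1 call was lost without array 4 (1.69, limma adjusted p = 0.0545) and without array 9 (1.51, limma adjusted p = 0.0652). For Trpm8 the interaction was 1.02 (limma adjusted p = 0.0482), a call lost in 7 of the 10 fits without 1 array. For Trpm4 it was 1.20 (limma adjusted p = 0.00333). Both changes ran between slides, so that slide and this interaction cannot be told apart.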

How the results depend on the processing

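The differences of Trpm4 from unstimulated neurons at 18/1 5 hr kept their direction and their call in the 46 settings run (-1.42 to -0.89), and those of Trpm8 in 45 of 45 (-1.49 to -1.11). Trpv1 kept its direction in 45 settings (-2.29 to -0.82, the first without array 6, where both remaining 18/1 5 hr spots are not well above background) and lost its call in 1, the methods' t-test after adjustment. No difference of a called member changed sign. With the scanner's processed signals, the fall from 2 to 5 hr of 18/1 was no longer called for Trpm4 (-0.65, adjusted p = 0.0728) and Trpm8 (-1.14, adjusted p = 0.088). The interaction was fitted in the main processing and without each array in turn, an alternative chosen after seeing the data. It stayed positive for Trpm4 (1.01 to 1.4), Trpv1 (1.07 to 2.54, the last without array 6) and Trpm8 (0.77 to 1.27). Trpm6 at 90/5 5 hr stayed positive in 48 settings (0.84 to 2.26) and was called in 5. Same-numbered samples of 90/5 5 hr and either slide 1 condition correlated in some pairs only (r = -0.069 to 0.638). They were not read as pairs, although these values do not settle whether they are paired. With the replicate block in place of the colour term, over those 3 conditions, 0 of the main fit's members and 1 further member (Trpm6 at 90/5 5 hr, 1.26, adjusted p = 0.0149) were called. For the paired 18/1 2 hr and unstimulated samples this block changed no member's call, Trpm6 having 0.38 (adjusted p = 0.603).

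Numbers of calls in the main fit moved as follows, the cause of each move not being tested beyond the number of probes that entered. Against unstimulated neurons the number was 1. It became 3 with the scanner's processed signals, with the 2-fold background rule alone, with the filter within 1 condition, with no filter and with array weights, and 2 with no array block and with the methods' t-test, and leaving out a sample or an array gave 1 to 2. For 90/5 against 18/1 the number was 1, and it became 3 with the background rule alone, the filter within 1 condition and no filter, and 2 with no array block and the methods' t-test. For 5 hr against 2 hr it was 2, and it became 1 with median centring and 4 with the background rule alone, and 3 in 6 other settings (the filter within 1 condition, no filter, no array block, array weights and the methods' t-test before and after adjustment), and leaving out a sample or an array gave 1 to 3. For the pairs that differ in pattern and time it was 1. It became 0 with the processed signals, the means of arrays, only the conditions compared and the adjusted t-test, 3 with the background rule alone and the filter within 1 condition, and 2 with no filter, no array block, array weights and the unadjusted t-test, and leaving out a sample or an array gave 0 to 1. The 5 members outside the main fit had 2 calls over the 4 comparisons with unstimulated neurons, so that 1 member can count more than once, and leaving out a sample or an array gave 2 to 3. The number became 4 with the processed signals, no array block and the unadjusted t-test, 5 with array weights, and 1 with the adjusted t-test. The numbers with the processed signals and with array weights include Trpc6 at 18/1 5 hr, which passed the filter through that condition alone and is not read as a call. Without slide 2 it was 1, also when the filter asked for the 12 remaining samples only, an alternative chosen after seeing the data. These numbers move beside the share of all probes called. Over the same processing settings of the main fit, that share ran from 25.4% with no filter to 59.9% with no array block at 18/1 5 hr against unstimulated neurons (41.6% with the processed signals, 41.5% with the background rule alone, 37.0% with the filter within 1 condition, 52.2% with array weights and 49.9% with the methods' t-test), from 26.8% to 60.9% for 90/5 against 18/1 at 5 hr, from 24.9% to 59.9% for 18/1 5 hr against 2 hr, and from 0.0% with the means of arrays, only the conditions compared and the adjusted t-test to 47.4% with median centring for 90/5 2 hr against 18/1 5 hr. In the second fit at 18/1 5 hr it was 34.6% with the processed signals, 56.7% with no array block, 55.8% with array weights and 45.6% with the unadjusted t-test.

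Dim spots limit Trpc6, Trpm6, Trpm8 and Trpv1, and non-uniform marks on slide 2 limit Trpv1, Trpm7 and Trpm8. With 2 arrays per condition, single arrays weigh heavily.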
